A study of Mus musculus with 19 samples.

Results

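The 9 genes described here, of 50559 in the deposited table, are associated with axon regeneration and nerve injury: Hspb1, Hspb8, Lgals1, Sprr1a, Atf3, Sox11, Gap43, Stmn2 and Stmn4. They were taken by symbol and followed in 18 ribosome immunoprecipitates of spinal cord cholinergic neurons and in 1 pooled input. All mice were ChAT-Cre;RiboTag fx/+ males on a C57BL/6J background, 10 weeks old, so that every library came from animals carrying both the Cre driver and 1 copy of the conditional hemagglutinin-tagged ribosomal protein. ChAT-Cre tags ribosomes in every cholinergic cell of the cord, motor neurons and cholinergic interneurons alike, and mRNA pulled down with the tag is that bound to ribosomes of those cells. Cords were collected every 4 h under a cycle of 12 h light and 12 h dark, at Zeitgeber time (ZT) 0, 4, 8, 12, 16 and 20, where ZT0 is lights on, with 3 biological replicates at each of the 6 time points. The labels name no injury to the animals, and the input, RNA of whole cord homogenate before pulldown, was a single library with no replicate.

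A motor neuron whose axon is cut changes its transcription: the injury-induced factors ATF3 and SOX11 rise, and with them proteins that act at the growth cone or protect the cell. SPRR1A is a small proline-rich protein that is scarce in intact neurons and accumulates in regenerating axons. HSPB1 and HSPB8 are small heat shock proteins that hold unfolding proteins and neurofilaments, and mutations in either cause inherited motor neuropathy. Galectin-1, the product of Lgals1, promotes axon growth, GAP43 is a membrane protein of the growth cone, and the stathmins encoded by Stmn2 and Stmn4 bind tubulin and regulate microtubules. Hspb1, Lgals1 and Sprr1a were chosen by their ratio to input or their variation over time in these same data, so their levels, ratios and correlations are described with no test, and the other 6 were taken by name.

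Total counts per immunoprecipitate ranged from 6302150 to 22406844, with a median of 15014112, and the input held 15239792. Values are CPM, the count of a gene per 1000000 counts of the library, after scaling by the trimmed mean of M values. Of 7 cholinergic markers, 6 averaged at least 2-fold above the input with all 18 immunoprecipitates above it. The exception was Chat, which ranged from 8.30 to 84.8 CPM against 12.9 CPM in the input. All markers of oligodendrocytes, astrocytes, microglia, endothelial cells, meningeal fibroblasts, Schwann cells, erythrocytes and excitatory neurons were depleted, with a mean at least 2-fold below the input and all 18 libraries below it. Of 4 inhibitory neuron markers 3 were depleted, and the other, Gad1, lay between 105 and 155 CPM against 139 CPM in the input. For sensory neurons, whose axons enter the cord and which also express injury genes, the 7 markers summed to 7.11 to 12.5 CPM against 49.4 CPM in the input, and Avil, Scn10a, Trpv1, Mrgprd and Prdm12 each averaged under 1 CPM and were at 0 in at least 1 immunoprecipitate. A ratio to input in such material cannot tell more cells of a type from more RNA per cell or from closer association with ribosomes.

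Hspb1 and Lgals1 had the highest ratios to input of the 9 genes, and the ratio of Hspb8 was lower. Hspb1 averaged 618 ± 73.0 CPM (SD, n = 18 libraries over all time points) against 36.0 CPM in the input, a log2 ratio of 4.10, or 17.2-fold. Its lowest library, ZT16 replicate 2 at 465 CPM, was still far above the exact 95% Poisson interval of the input, 33.3 to 38.8 CPM. Lgals1 averaged 492 ± 39.5 CPM against 36.4 CPM, a log2 ratio of 3.75, and no immunoprecipitate lay below 438 CPM. Hspb8 averaged 212 ± 25.0 CPM against 43.0 CPM, a log2 ratio of 2.30. Hspb1 and Lgals1 both stood at the 99.8th percentile of the 21169 genes compared with the input, and Hspb8 at the 97.8th. Intervals on the input cover counting error only, and no test of the ratio was possible with 1 input.

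Among the cytoskeletal members, Stmn2 and Stmn4 parted. Stmn2 averaged 2050 ± 175 CPM against 370 CPM in the input, a log2 ratio of 2.47, with all 18 libraries above the input. Stmn4, from the same family, averaged 125 ± 21.6 CPM against 154 CPM, a log2 ratio of -0.30, and lay below the input in 16 of 18. That ratio was the same as the median over all genes compared, which was also -0.30. Gap43 averaged 113 ± 12.0 CPM against 108 CPM, with 11 libraries above and 7 below the input. Its log2 ratio was 0.06 and became -0.23 when libraries were scaled by their totals, a scaling that also moved the median of all genes to -0.59.

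The injury-induced genes were scarce in both fractions, and their ratios were less certain. Sprr1a averaged 3.99 ± 3.56 CPM in the immunoprecipitates and 0.375 CPM in the input, where it had 7 counts and an interval of 0.151 to 0.773 CPM, for a log2 ratio of 3.41 (10.6-fold). With the median of the immunoprecipitates, 2.38 CPM, in place of their mean, the log2 ratio was 2.66. The library below the input was ZT20 replicate 1, with 0.314 CPM from 2 counts. Atf3 averaged 3.14 ± 2.02 CPM against 1.07 CPM (20 counts, interval 0.655 to 1.66), a log2 ratio of 1.55, and was above the input in 16 of 18. Sox11 averaged 11.9 ± 2.11 CPM against 6.81 CPM, a log2 ratio of 0.80, and all 18 libraries were above the input. Calling a gene enriched when the mean was at least 2-fold above the input and all 18 libraries exceeded it, 4 of the 9 (Hspb1, Hspb8, Lgals1 and Stmn2) were enriched and 0 were depleted, where 11.2% of all genes compared were enriched and 21.5% depleted. Since the ratio was part of how the genes were chosen, nothing is read from that count. Sprr1a met both criteria once ZT20 replicate 1 was left out.

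**Figure D1:**
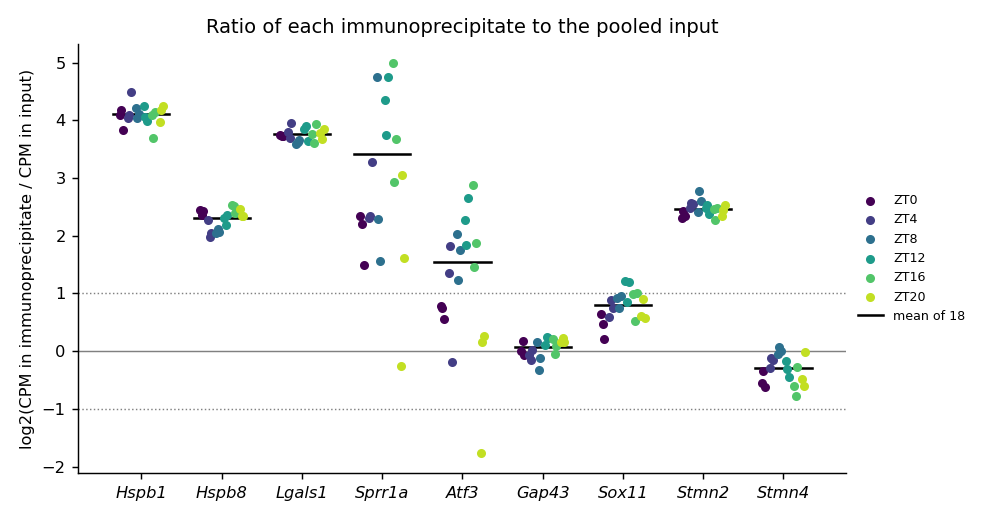
Log2 ratio of CPM in each of the 18 immunoprecipitates to CPM in the pooled input (y axis) for the 9 genes (x axis). Points are libraries coloured by Zeitgeber time, black bars the ratio of the 18-library mean, and dotted lines a 2-fold difference either way. Hspb1, Lgals1, Hspb8 and Stmn2 form tight groups above the upper dotted line, while Sprr1a spreads from 0.314 to 11.9 CPM and Atf3 from 0.314 to 7.85 CPM, on both sides of the input.

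Scaled by length of merged exons, levels fell into 3 tiers. Stmn2 led with 989 ± 84.4 CPM per kb (SD, n = 18), followed by Lgals1 at 615 ± 49.4 and Hspb1 at 600 ± 70.8 CPM per kb, a pair that differed by less than its spread. Hspb8 (117 ± 13.7), Stmn4 (87.0 ± 15.1) and Gap43 (79.3 ± 8.44) formed the middle, and the last pair again overlapped. Sprr1a (4.95 ± 4.41), Atf3 (1.46 ± 0.937) and Sox11 (1.43 ± 0.254 CPM per kb) were lowest, with the last pair indistinguishable. In the input the order differed, with Stmn2 at 178, Stmn4 at 107 and Gap43 at 75.8 CPM per kb ahead of Lgals1 at 45.6 and Hspb1 at 34.9.

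Atf3 encodes a bZIP factor that is nearly absent from intact motor neurons and is a standard marker of axotomy. At ZT0 its 3 libraries read 1.84, 1.81 and 1.57 CPM, and at ZT4 2.76, 3.79 and 0.945 CPM. At ZT8 they read 4.35, 2.53 and 3.62 CPM and at ZT12 5.16, 3.85 and 6.76 CPM. The 3 ZT12 libraries were above every library of ZT0, ZT4 and ZT20, and overlapped those of ZT8 and ZT16. At ZT16 the values were 7.85, 2.96 and 3.94 CPM, and at ZT20 0.314, 1.19 and 1.28 CPM. Means thus climbed from 1.74 ± 0.148 CPM at ZT0 to 5.26 ± 1.46 at ZT12 and were lowest, 0.930 ± 0.535, at ZT20 (SD, n = 3 each).

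The time points differed for Atf3 in edgeR's quasi-likelihood test (Benjamini-Hochberg adjusted p = 0.0279), with time point means of log2 CPM spanning 2.48. A 24-h cosine fitted with an amplitude of 0.96 log2 units, peaking at 11.4 h (adjusted p = 0.0409, and 0.0648 with an oligodendrocyte score as a covariate). The unadjusted p of these cosinor fits were 0.000788 and 0.00166. No single pair of time points passed in edgeR (lowest adjusted p = 0.0710), whereas in DESeq2 the lowest was 0.00154, and in edgeR 0.0444 with an erythrocyte score as a covariate, 0.0459 without ZT8 replicate 1 and 0.0473 without ZT16 replicate 3. Of the 6 genes tested, 2 (Hspb8 and Atf3) passed the time point test, where 6.74% of 15572 genes did, and the same 2 passed the cosinor, where 6.24% did. None of the 6 passed JTK_Cycle, a rank test of rhythmicity (lowest adjusted p = 0.0814), where 0.0385% of all genes passed. Atf3 lost the time point call when ZT0 replicate 1 or 3, ZT8 replicate 2 or 3 or ZT16 replicate 1 was left out (adjusted p between 0.0602 and 0.0910), although its unadjusted p over all 18 such fits stayed between 0.000201 and 0.00169. Without all libraries of replicate 1, 2 or 3, the call was lost each time (adjusted p = 0.151, 0.630 and 0.114). In these fits 816, 0 and 0 of all genes passed. The cosinor call was lost in 10 of the 18 fits for Atf3 and in 9 for Hspb8, with adjusted p up to 0.121. Without ZT4 replicate 3 and ZT20 replicate 1, the 2 shallowest libraries, in which Atf3 had 6 and 2 counts, the range of means was 1.95 and the adjusted p 0.0534.

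Sprr1a had the widest range of the 9. Its libraries read 1.90, 1.72 and 1.06 CPM at ZT0 and 1.86, 1.89 and 3.62 CPM at ZT4. At ZT8 replicate 1 stood apart at 10.1 CPM beside 1.83 and 1.10 CPM, and at ZT12 all 3 were high at 7.62, 5.00 and 10.1 CPM. ZT16 was again divided, with 11.9, 2.85 and 4.77 CPM, and ZT20 read 0.314, 3.12 and 1.15 CPM. As for Atf3, the ZT12 libraries were above all those of ZT0, ZT4 and ZT20. Time point means of log2 CPM spanned 2.59, and from 2.17 to 3.28 with 1 library left out in turn. Replicates varied with a biological coefficient of variation of 56.4%, at the 89.7th percentile of the genes tested, against 34.7% for Atf3 and a median of 17.5%.

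Sox11, an SRY-related factor required for regeneration in several neuron types, moved less. Its values were 10.6, 9.42 and 7.85 CPM at ZT0 and 15.7, 12.3 and 15.6 CPM at ZT12, which did not overlap. The remaining time points lay between 9.74 and 13.6 CPM. Its means of log2 CPM spanned 0.64, and neither the time point test (adjusted p = 0.183) nor the cosinor with its peak at 11.7 h (adjusted p = 0.0577, edgeR) passed. DESeq2 called the Sox11 cosinor at an adjusted p of 0.0257.

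**Figure D2:**
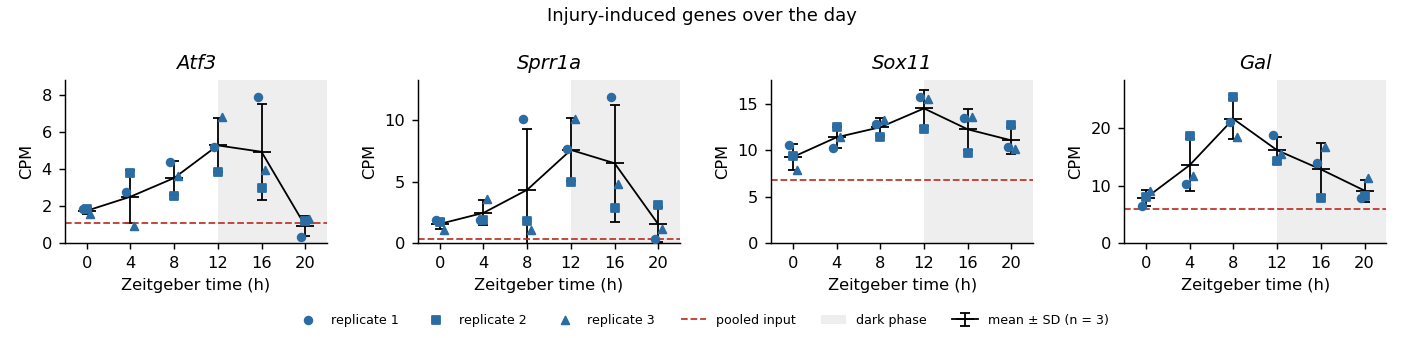
CPM (y axis, from 0) of Atf3, Sprr1a, Sox11 and the neuropeptide gene Gal by Zeitgeber time in h (x axis). Points are single libraries with a marker for each replicate number, black lines join the mean ± SD of 3 libraries, the red dashed line is the pooled input and grey marks the dark phase. The mean is highest at ZT12 for Atf3, Sprr1a and Sox11 and at ZT8 for Gal.

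Haemoglobin transcripts also peaked at ZT12. The 4 erythrocyte markers Hba-a1, Hba-a2, Hbb-bs and Hbb-bt summed to 675 ± 76.5 CPM at ZT12 (597 to 750), and all other libraries lay between 208 and 431 CPM. All 4 passed the time point test, and their part in the ZT12 values of Atf3, Sprr1a and Sox11 was not tested beyond a fit with the erythrocyte score as a covariate. In that fit, chosen after seeing the data, the adjusted p of Atf3 was 0.00498 for time points and 0.154 for the cosinor, which called 0 of all genes. Its unadjusted cosinor p went from 0.000788 to 0.000904, and its amplitude from 0.96 to 1.16 log2 units. For Sox11 the unadjusted p went from 0.0392 to 0.318 for time points and from 0.00467 to 0.0659 for the cosinor. Across the 18 libraries the correlation of Sox11 with the erythrocyte score was r = 0.59 and did not pass (permutation p = 0.00989, adjusted 0.0712 over 36 relations; rho = 0.46, permutation p = 0.0559), and r = 0.39 without the 2 farthest libraries.

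The promoters of these 3 genes, which shared the time of their highest mean, are shown with letters of motifs bound by AP-1 and ATF factors in capitals. Windows run from 250 bases before to 50 after the RefSeq start in GRCm38.p6 and were searched on both strands for TGAGTCA (AP-1), TGACGTCA (cAMP response element) and its part TGACGT. For Sprr1a the window was chr3:92485832-92486131 on the minus strand, for Atf3 chr1:191183284-191183583 on the minus strand and for Sox11 chr12:27342669-27342968 on the minus strand.
Sprr1a: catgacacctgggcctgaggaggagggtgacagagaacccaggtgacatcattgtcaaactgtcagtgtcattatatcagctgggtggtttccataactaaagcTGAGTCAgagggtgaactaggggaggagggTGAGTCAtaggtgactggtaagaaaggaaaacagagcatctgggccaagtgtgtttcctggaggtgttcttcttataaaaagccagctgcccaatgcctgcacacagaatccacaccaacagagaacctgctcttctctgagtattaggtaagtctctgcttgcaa
Atf3: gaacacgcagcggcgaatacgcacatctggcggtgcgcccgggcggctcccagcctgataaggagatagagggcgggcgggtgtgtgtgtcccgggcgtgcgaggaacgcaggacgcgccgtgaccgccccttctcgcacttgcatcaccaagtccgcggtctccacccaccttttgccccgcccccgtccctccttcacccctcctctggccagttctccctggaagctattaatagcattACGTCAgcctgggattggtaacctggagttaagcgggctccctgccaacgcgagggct
Sox11: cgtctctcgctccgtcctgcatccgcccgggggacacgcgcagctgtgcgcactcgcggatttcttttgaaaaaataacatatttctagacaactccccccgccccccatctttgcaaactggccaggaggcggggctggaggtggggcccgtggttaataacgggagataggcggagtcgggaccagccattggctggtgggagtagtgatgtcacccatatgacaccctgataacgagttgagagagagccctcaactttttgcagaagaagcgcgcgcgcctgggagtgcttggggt
Sprr1a holds TGAGTCA 146 and 116 bases before its start. Among 32851 RefSeq promoters of the same length, 5.20% hold this motif and 0.222% hold it at least 2 times. Atf3 holds TGACGT on the opposite strand 8 bases before its start, as do 7.51% of promoters anywhere in the window. None of the letters searched occurs in the Sox11 window, and TGACGTCA (1.79% of promoters) is in none of these.

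Atf3 and Sox11 varied together over the libraries. Over 18 libraries their log2 CPM gave r = 0.60 (permutation p = 0.00813, adjusted 0.0443 over the 36 pairs of the 9 genes) and rho = 0.70 (permutation p = 0.002, adjusted 0.012), with r = 0.71 without the 2 libraries farthest out. Taken as deviations from each time point's mean, r was 0.45 (exact permutation p = 0.108, adjusted 0.278), so that the relation was not shown apart from differences between time points. For Sprr1a, whose variation over time was among the reasons for its choice, the values are given with no test: r was 0.77 with Atf3 and 0.68 with Sox11 over 18 libraries, and 0.49 and 0.52 within time points.

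**Figure D3:**
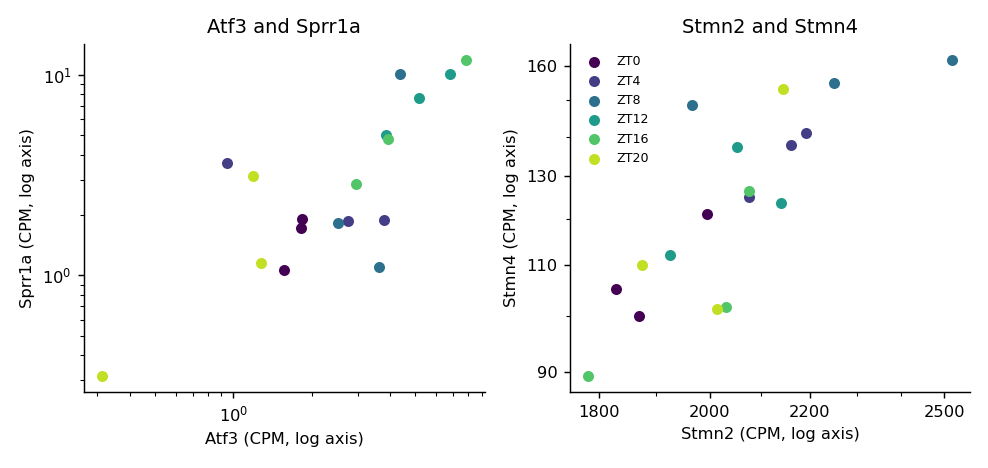
CPM of Sprr1a against Atf3 (left) and of Stmn4 against Stmn2 (right), each on log axes, in the 18 immunoprecipitates coloured by Zeitgeber time. On the left ZT12 libraries lie toward the upper right with ZT16 replicate 1, and ZT20 replicate 1 with 2 counts of each gene lies at the lower left. On the right the 2 stathmin genes rise together, ZT8 being highest for Stmn4.

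Hspb8 was the other gene to pass the time point test, with a small but tight change. It read 236, 222 and 230 CPM at ZT0, then 208, 169 and 178 CPM at ZT4 and 178, 188 and 180 CPM at ZT8. At ZT12 it read 212, 196 and 220 CPM, at ZT16 249, 246 and 225 CPM, and at ZT20 237, 218 and 219 CPM. Every ZT8 library was below every library of ZT0, ZT12, ZT16 and ZT20. Time point means of log2 CPM spanned 0.40 (time point test, adjusted p = 0.0312), and the cosinor had an amplitude of 0.20 and a peak at 18.6 h (adjusted p = 0.0373). The cosinor call was lost with an oligodendrocyte score (adjusted p = 0.0636) or an erythrocyte score (0.154) as a covariate. The unadjusted cosinor p of Hspb8 was 0.000218 without a covariate, 0.000256 with the oligodendrocyte score and 0.000897 with the erythrocyte score. With these scores the cosinor called 3 and 0 of all genes, against 972 without. Among oligodendrocyte markers 1 of 7 differed over time, Mbp (adjusted p = 0.0264), with a cosine peak at 17.9 h that did not pass (adjusted p = 0.0568). ZT8 was lower than ZT0 by a log2 difference of -0.33 ± 0.09 (SE, adjusted p = 0.0177), where 9.02% of all genes were called lower, and ZT16 higher than ZT8 by 0.40 ± 0.09 (adjusted p = 0.00905), where 9.11% were called higher. Its biological coefficient of variation, 8.84%, was at the 2.62nd percentile of the genes tested. The time point call was lost when any of 8 libraries was left out (ZT0 replicates 1 and 3, ZT4 replicates 2 and 3, ZT8 replicates 2 and 3, ZT16 replicates 1 and 2), with adjusted p between 0.0551 and 0.116, and also without the 2 shallowest libraries (0.0766). It was lost too without all libraries of replicate 1, 2 or 3 (adjusted p = 0.127, 0.630 and 0.163). For pairs of time points, the lowest adjusted p of Hspb8 was 0.0586 without replicate 1 and 0.104 without replicate 2 at all time points.

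Hspb1 and Lgals1 showed small differences over the day. Hspb1 time point means lay between 572 ± 93.0 CPM at ZT16 and 669 ± 118 CPM at ZT4 (SD, n = 3), whose libraries overlapped, and means of log2 CPM spanned 0.23. The highest Hspb1 value, 804 CPM, was ZT4 replicate 3. Lgals1 means lay between 449 ± 12.1 CPM at ZT8 and 514 ± 47.6 CPM at ZT4, a span of 0.19. Against log2 total count, its level gave r = -0.63 and rho = -0.67 over 18 libraries, r = -0.55 without the 2 farthest libraries and r = -0.61 within time points, given with no test. Hspb1 was also the one gene of the 9 with estimated counts that were not whole, in all 19 libraries, so that some of its reads had been divided with other loci.

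**Figure D4:**
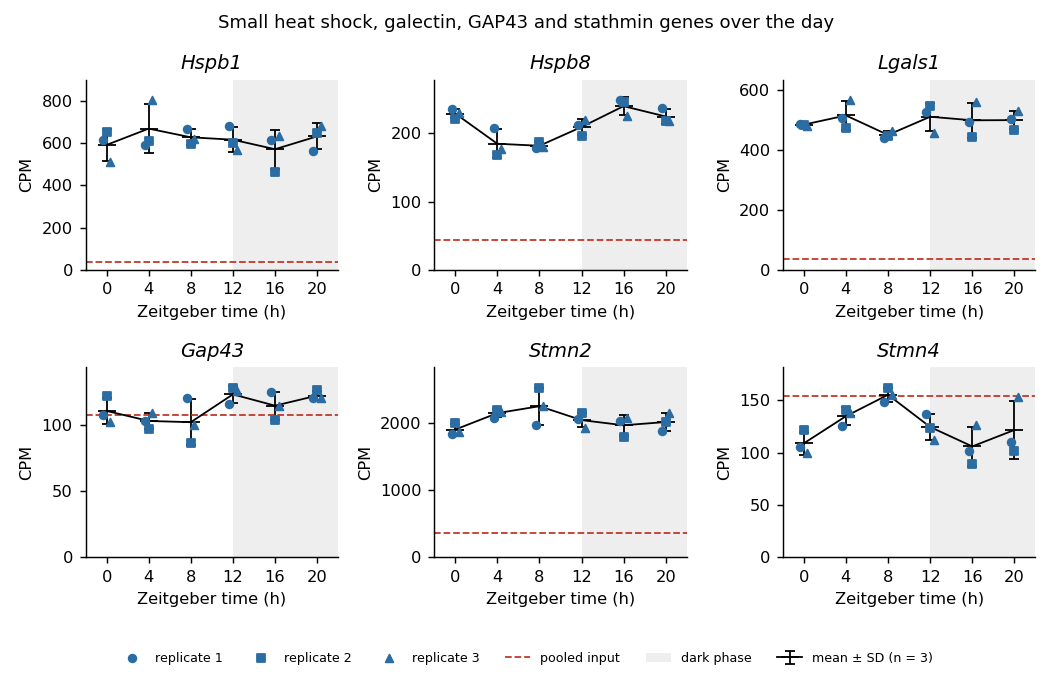
CPM (y axis, from 0) of Hspb1, Hspb8, Lgals1, Gap43, Stmn2 and Stmn4 by Zeitgeber time in h (x axis), with points for single libraries, black mean ± SD of 3, the pooled input as a red dashed line and the dark phase in grey. Hspb1, Hspb8, Lgals1 and Stmn2 lie far above the input at all 6 time points, Gap43 lies on it and Stmn4 mostly below it.

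The promoters of the 2 small heat shock genes are shown for their heat shock element cores, GAANNTTC, in capitals. The Hspb1 window was chr5:135887669-135887968 on the plus strand and the Hspb8 window chr5:116422815-116423114 on the minus strand, of the same build and length as above.
Hspb1: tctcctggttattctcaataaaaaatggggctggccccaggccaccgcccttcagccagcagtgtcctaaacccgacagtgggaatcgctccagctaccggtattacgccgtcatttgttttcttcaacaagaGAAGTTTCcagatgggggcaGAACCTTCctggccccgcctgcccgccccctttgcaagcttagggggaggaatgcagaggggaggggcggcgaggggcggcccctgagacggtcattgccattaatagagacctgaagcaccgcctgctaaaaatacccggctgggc
Hspb8: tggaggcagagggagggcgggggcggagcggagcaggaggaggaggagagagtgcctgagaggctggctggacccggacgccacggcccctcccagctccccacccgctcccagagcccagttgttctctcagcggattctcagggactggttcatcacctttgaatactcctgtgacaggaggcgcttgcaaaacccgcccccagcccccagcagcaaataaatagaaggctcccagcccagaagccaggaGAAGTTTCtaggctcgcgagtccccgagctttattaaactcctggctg
Hspb1 holds the core 117 and 97 bases before its start, and Hspb8 once, from 2 bases after its start. Of all promoters 7.86% hold at least 1 such core and 0.344% at least 2. The motif reads the same on both strands.

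Of the stathmins, Stmn4 changed between pairs of time points. Its libraries read 105, 121 and 100 CPM at ZT0, 125, 141 and 138 CPM at ZT4, and 149, 162 and 155 CPM at ZT8. They then read 137, 124 and 112 CPM at ZT12, 102, 89.3 and 127 CPM at ZT16, and 110, 101 and 153 CPM at ZT20. The 3 ZT8 libraries were above those of ZT0, ZT4, ZT12 and ZT16, with ZT20 replicate 3 inside their range. ZT8 exceeded ZT0 by a log2 difference of 0.51 ± 0.14 (SE, adjusted p = 0.0190), where 8.95% of genes were called higher, and ZT16 was below ZT8 by -0.55 ± 0.14 (adjusted p = 0.0145), where 7.80% were called lower. The lowest adjusted p over pairs was 0.0755 without ZT8 replicate 2, 0.0501 without ZT8 replicate 3, 0.0743 without all libraries of replicate 1 and 0.103 without those of replicate 2. The joint time point test missed the threshold (adjusted p = 0.0813), though DESeq2 gave 0.0158. Of the 6 genes tested, 2 (Hspb8 and Stmn4) passed for any pair, where 21.4% of all genes did.

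Stmn2 and Gap43 did not pass. Stmn2 means lay between 1898 ± 86.1 CPM at ZT0 and 2245 ± 276 CPM at ZT8, with overlapping libraries (span 0.24, adjusted p = 0.387). Gap43 means lay between 102 ± 17.3 CPM at ZT8 and 123 ± 6.47 CPM at ZT12 (span 0.28, adjusted p = 0.330). Stmn2 and Stmn4 varied together, with r = 0.80 over 18 libraries (permutation p = 3e-05, adjusted 0.00108), rho = 0.81 (permutation p = 9e-05, adjusted 0.00324) and r = 0.72 without the 2 farthest libraries. Within time points r was 0.64 (exact permutation p = 0.00649, adjusted 0.195) and rho 0.79 (exact permutation p = 0.00114, adjusted 0.0409). Both followed the first principal component, which carried 52.8% of the variance of the 9214 genes with a mean log2 CPM above 3, these genes included. Over 18 libraries r was 0.92 for Stmn2, 0.91 for Stmn4 and -0.82 for Hspb8 (permutation p = 1e-05 each, the smallest 100000 permutations can give, adjusted 0.00012). Within time points r was 0.89 for Stmn2 (exact permutation p = 0.000965, adjusted 0.0174) and 0.79 for Stmn4 (exact permutation p = 0.000193, adjusted 0.00694). For Hspb8 it was -0.43 (exact permutation p = 0.0690, adjusted 0.261), so that its relation was not shown apart from differences between time points. The component was built from these same libraries and genes to carry the most variance, so these p do not set Stmn2, Stmn4 and Hspb8 apart. The share of all genes with such an r was not computed. What that component reflects was not tested. Over 18 libraries Hspb8 gave r = -0.78 with Stmn4 (permutation p = 0.00015, adjusted 0.00216) and -0.68 with Stmn2 (permutation p = 0.00177, adjusted 0.0149). Within time points these were -0.45 and -0.35 and did not pass (exact permutation, adjusted p = 0.238 and 0.274). Of the 7 cholinergic markers 1, Slc18a3, differed over time (adjusted p = 0.0438, edgeR), with a cosine peak at 19.0 h. In the same test Chat (adjusted p = 0.0572), Isl1 (0.0692), Slc5a7 (0.0922), Ache (0.149), Prph (0.264) and Mnx1 (0.754) did not pass. The lowest edgeR adjusted p over pairs was 0.0107 for Slc18a3, 0.0115 for Chat, 0.0147 for Isl1 and 0.0158 for Slc5a7. It was 0.0292 for Ache, 0.0508 for Prph and 0.632 for Mnx1. Means of Chat, Slc5a7, Slc18a3 and Ache were lowest at ZT8, that of Isl1 at ZT4 and those of Prph and Mnx1 at ZT0.

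Over the 18 libraries the 3 genes most like each member, by r of log2 CPM, were Rab24, Ppdpf and Nxph4 for Hspb1 (0.92 to 0.87), Narf, Cs and Pex10 for Hspb8 (0.96 to 0.91) and S100a10, Mpc2 and Hmgn1 for Lgals1 (0.87 to 0.80). For the scarcer genes the likeness was weaker: Ehmt2 led for Sprr1a (0.76), Parn for Atf3 (0.74) and Chpf2 for Sox11 (0.81). Stmn2 and Stmn4 were most like Tsc22d1 (0.95) and Fam219b (0.95), and Gap43 most like Ccdc124 (0.90). Each list of 3 was taken from 8713 or 8714 genes at a mean of at least 10 CPM, so high values are in part the result of picking.

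Other genes of the same programme were taken from fixed lists of 95 genes, of which 78 could be tested over time. Time points differed for 17 of them (21.8%) and the cosinor for 15, against 6.74% and 6.24% of all genes. Of the 87 compared with the input, 25 were enriched (28.7%) and 19 depleted (21.8%), where 11.2% and 21.5% of all genes were. The depleted share was thus near that of all genes. Their median log2 ratio was 0.14 against -0.30 over all genes. From ZT0 to ZT8, 12 of the 78 genes (15.4%) were called higher and 17 (21.8%) lower, where 8.95% and 9.02% of all genes were. Fewer of the 17 time point calls were kept without ZT0 replicate 1 (2) or 3 (3), ZT4 replicate 2 (4) or 3 (10), ZT8 replicate 2 (1) or 3 (0), ZT12 replicate 2 (11) or ZT16 replicate 1 (3), and without the 2 shallowest libraries (2). The lists were chosen with results of these data known, so these shares are descriptions.

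Of 18 regeneration-associated transcription factors, 4 were enriched and 4 depleted, where 11.2% and 21.5% of all genes were. Cebpb had a log2 ratio of 1.72 and Jun, the AP-1 subunit induced by axotomy, 1.66 (146 ± 24.4 CPM against 46.2 CPM), while Klf4, a repressor of axon growth, had -3.69 and Sox4 -2.39. Klf6 and Klf7, which promote axon growth, and the stress factor Atf4 differed over time (adjusted p = 0.0327, 0.0278 and 0.0349). Their cosine peaks lay at 6.35, 6.99 and 6.72 h, beside 11.4 h for Atf3, and differences in peak time were not tested. Atf4 rose by 0.70 ± 0.17 log2 units from ZT0 to ZT8 (adjusted p = 0.00962).

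Among 21 growth cone and cytoskeletal genes, 7 were enriched and 5 depleted, where 11.2% and 21.5% of all genes were. Highest were Stmn3 (log2 ratio 2.99) and the neuronal tubulin Tubb3 (2.75), and lowest Chl1 at -2.66 and Marcksl1 at -2.65. Stmn3, Pfn2, Basp1 and Ncam1 differed over time. Stmn3 averaged 2841 ± 418 CPM in ZT0 libraries and 5808 ± 1372 CPM in those of ZT8 (log2 difference 1.03 ± 0.21, adjusted p = 0.00593), with a cosine peak at 7.58 h (adjusted p = 0.0410). The cosinors of Stmn2 (adjusted p = 0.231) and Stmn4 (0.0822) did not pass. Basp1, a growth cone partner of GAP43, went the other way by -0.73 ± 0.14 (adjusted p = 0.00523).

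Among 15 small heat shock proteins and partners, Bag3 had the highest ratio. It is the co-chaperone that HSPB8 binds in selective autophagy, and averaged 553 ± 41.8 CPM against 52.5 CPM, a log2 ratio of 3.40 beside 4.10 for Hspb1. The ubiquitin ligase Stub1 of the same pathway followed at 2.28. By contrast Cryab (-1.73) and Hspb6 (-1.12), small heat shock genes of glia and muscle, were depleted. Sqstm1, Hspa8, Hspa1b and Stub1 differed over time. Sqstm1 fell by 0.69 log2 units from ZT0 to ZT8 (adjusted p = 0.00519) and Hspa8 fell by 0.52 (adjusted p = 0.00618). That was the direction of Hspb8, and 9.02% of all genes were called lower. Stub1 rose by 0.85 ± 0.18 (adjusted p = 0.00714), where 8.95% were called higher. Bag3 did not pass (adjusted p = 0.437).

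The galectin list held 7 genes, among them Lgals3bp, which encodes a galectin-binding protein. Of the 6 with at least 10 counts, 0 were enriched and 1 was depleted, where 11.2% and 21.5% of all genes were. The depleted gene was Lgals9, with a log2 ratio of -2.37. Since Lgals1 was chosen by its values in these data, nothing is read from its contrast with this list. Lgals8 had 0.81 and Lgals3bp -0.44. Lgals3bp, the galectin-3 binding protein, differed over time (adjusted p = 0.0278), by -2.23 ± 0.44 log2 units between ZT0 and ZT8. The 7 relatives of Sprr1a could not be measured: 6 had a count of 0 in all 19 libraries, which allows at most 3 counts or 0.161 CPM in the input, and Sprr2a1 had estimated counts of 0.5 in the input, 0.5 in ZT8 replicate 3 and 2 in ZT20 replicate 3.

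Among 27 injury-induced signalling genes, 10 were enriched and 7 depleted, where 11.2% and 21.5% of all genes were. The endopeptidase gene Ecel1, a marker of damaged neurons, had a log2 ratio of 2.41 and neurotensin (Nts) 2.39, and the neurotrophin receptor Ngfr had -2.39 and Cntf, which glia make, -2.42. Gal, the injury-induced neuropeptide galanin, had the lowest time point p of this list after Itga7. Its libraries read 6.44, 8.06 and 9.05 CPM at ZT0 and 20.9, 25.3 and 18.4 CPM at ZT8, with no overlap. The difference was 1.46 ± 0.26 log2 units (adjusted p = 0.00519), and the cosine peaked at 9.58 h (adjusted p = 0.0345). Itga7, an integrin of regenerating motor axons, and Gadd45a, a growth arrest gene, also passed (adjusted p = 0.0204 and 0.0242), with peaks at 16.8 and 6.93 h.

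**Figure D5:**
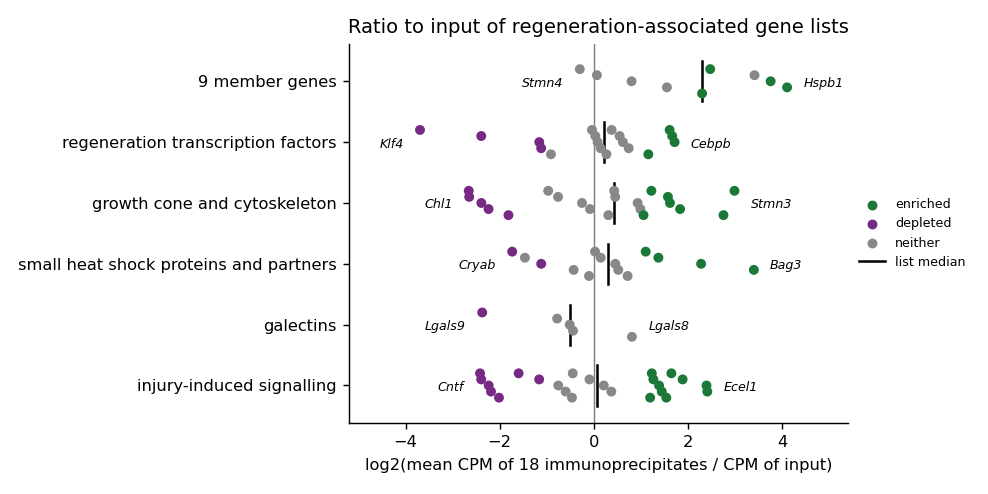
Log2 ratio of the mean CPM of 18 immunoprecipitates to the input CPM (x axis) for the 9 genes and for 5 fixed lists (y axis), with genes of at least 10 counts in all and at least 3 in the input. Each point is a gene, coloured by call, black bars are list medians, and the lowest and highest gene of each row are named. Hspb1 and Bag3 are the highest of their rows.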

How the data were processed

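Spinal cord RNA of 18 hemagglutinin immunoprecipitates and 1 pooled input had been sequenced as 150-bp reads, and samples had been processed together. Per the labels and methods, the authors aligned reads to mm10 with STAR 2.7.5 and deposited expected counts per gene estimated with RSEM; between 1.90% and 3.68% of values per library were not whole, and all were rounded. Genes passing edgeR's expression filter (15572) were scaled by trimmed mean of M values and tested with edgeR 4.0.16 quasi-likelihood fits over all 18 immunoprecipitates, for any difference among time points, a 24-h cosinor and 15 pairs, with Benjamini-Hochberg adjustment over all genes and a threshold of 0.05. Pairs were adjusted within each pair and not over all 15. JTK_Cycle used periods of 20, 24 and 28 h. The input comparison used 21169 genes, without a test. DESeq2 1.42.0, other scalings, filters, covariates and left-out libraries were alternatives. Fits were tested on simulated data. Correlations used 100000 permutations, or 46656 exact arrangements within time points. Replicates were separate animals; same-numbered libraries did not deviate together (45 pairs, r between -0.15 and 0.18), so no block was used. Promoters came from RefSeq (GRCm38.p6) and matched 5 of the 9 genes; exon lengths came from GENCODE.

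The 9 genes and all lists were chosen with earlier results of these data known. Named list genes were the 3 with the lowest time point p and the 2 highest and 2 lowest ratios to input (at least 20 input counts) of each list; others named were chosen after their values were seen.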

Additional observations from a re-analysis of the deposited data

How the results depend on the processing

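The counts of genes called over time were unstable. Of 15572 genes, 1049 differed among time points; the count was 2493 in DESeq2, 2360 with an erythrocyte marker score as a covariate and 82 without the 2 shallowest libraries (both added after seeing the data), and 0 to 2453 with a library or replicate number left out. The cosinor called 972, against 2247 in DESeq2, 3 with an oligodendrocyte score, 0 with the erythrocyte score (3013 at unadjusted p under 0.05), 3 without the 2 shallowest libraries and 0 to 2699 with libraries left out. JTK_Cycle called 6, against 1 for the 24-h period alone, 0 with the oligodendrocyte score, 0 with the erythrocyte score, 0 without the 2 shallowest libraries and 0 to 754 with libraries left out. Any pair called 3332, and 1 to 4841 with libraries left out. The enriched members numbered 4 under every scaling, 4 to 5 with a library or replicate number left out and 6 without the 2 shallowest libraries, where Sprr1a and Atf3 joined them. The cause of these moves was not tested.

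With the replicate number as a block, the same-numbered libraries sharing only a number, JTK_Cycle called 356, the time point test 1004 and the cosinor 756, and Atf3 (adjusted p = 0.0368) and Hspb8 (0.0341) kept their time point calls. Both genes lost these calls when all libraries of any replicate number were left out. Depth limits Sprr1a and Atf3 most, with as few as 2 counts in a library.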
